A study of Homo sapiens with 78 samples.

Results

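In A549, an epithelial cell line from a human lung carcinoma, 26 of the 19652 genes listed were raised at 6 h by IL-1β-plus-budesonide while neither treatment alone raised them past a set limit. The genes were chosen on the 6 h group means of log2(TPM + 0.5), where TPM is the transcript abundance per length and library size as scaled by the authors. A gene was kept when the IL-1β-plus-budesonide mean exceeded that of not stimulated (NS) cells by 1 or more, when IL-1β minus NS and budesonide minus NS were each below 0.7, and when the mean with IL-1β-plus-budesonide was 3 TPM or more. Because these values selected the genes, every 6 h value below is a description and was not tested. Tests were made only at 1, 2, 12 and 24 h, whose group means played no part in the choice, while the spread behind each p-value was estimated over all libraries, those at 6 h included.

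Wild-type cells were held overnight without serum and were then given fresh serum-free medium alone (NS), IL-1β at 1 ng/ml, budesonide at 300 nM, or both together. Poly(A) RNA was sequenced after 1, 2, 6, 12 and 24 h, giving 78 libraries in 20 groups. There were 4 in each group, or 3 for IL-1β-plus-budesonide at 12 h and for NS at 6 h. The labels name 4 independent experiments, with 3 at 12 h, without tying libraries to them, so p-values measure the spread between these libraries. Values of single libraries are given below in the order of their replicate numbers, 1, 2 and 4 in the groups of 3 and 1 to 4 in the others. All results come from 1 cell line. All 6 epithelial markers examined (EPCAM, CDH1 and 4 keratins) reached 1 TPM in 3 or more libraries, with a summed level of 3884 to 22147 TPM. The summed level was 9.59 to 53.4 TPM for 6 alveolar type II markers, 5.34 to 45.5 TPM for 7 immune cell markers, of which CD68 was the highest, 4.34 to 25.2 TPM for 6 fibroblast markers and 0.0245 to 2.08 TPM for 6 endothelial markers. In bulk RNA, a change in the number of cells of a kind and a change of RNA per cell cannot be told apart. In 5 libraries, none of them from 6 h, the median absolute distance to the rest of the group was 0.29 to 0.459 on the log2 scale, against at most 0.273 in the other 73. These were IL-1β-plus-budesonide replicate 4 at 1 h and 2 at 12 h, IL-1β replicate 2 at 24 h, and budesonide replicates 3 at 2 h and 2 at 12 h.

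IL-1β binds its receptor on the cell surface and activates NF-κB and MAP kinases, which switch on inflammatory genes. Budesonide is an inhaled glucocorticoid that binds the glucocorticoid receptor (GR), a transcription factor that moves to the nucleus, activates genes through glucocorticoid response elements and dampens many inflammatory genes. GR and NF-κB can also occupy the same regulatory regions, and some genes respond more to both stimuli than to either alone.

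At 6 h the difference between IL-1β-plus-budesonide and NS ran from 1.01 for ABR to 2.39 for PLXNC1 on the log2 scale, with a median of 1.26 over the 26 genes against -0.04 over all 13327 genes tested. In 5 genes it was 2 or more, in 10 it was from 1.2 to 2, and in 11 it was below 1.2. IL-1β alone differed from NS by -0.50 for NRG2 to 0.69 for RRBP1, and budesonide alone by -0.30 for CNKSR3 to 0.70 for DGKH. In 23 genes every IL-1β-plus-budesonide library lay above every other 6 h library, the exceptions being CHRNA4, ZBTB43 and DGKH. The choice on these same groups favours such separation, and the same count over all genes was not made. On the log2 scale the joint difference exceeded the sum of the separate differences by 1 or more in 13 genes and by less than 1 in 10. It fell short of the sum in 3 genes, MMP25 (-0.06), PDIA5 (-0.22) and RRBP1 (-0.30), in which IL-1β alone gave 0.69, 0.64 and 0.69 and budesonide alone 0.69, 0.66 and 0.63. In TPM, the joint effect was larger than the sum of both single effects in 25 of the 26 genes, the exception being RRBP1. In PDIA5 the joint effect was 30.81 TPM and the sum 30.80 TPM. The rule, with its minimum of 1 and its limits of 0.7, favours an excess over the sum on both scales. These counts therefore describe the choice, and the same counts over all genes were not made.

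**Figure D1:**
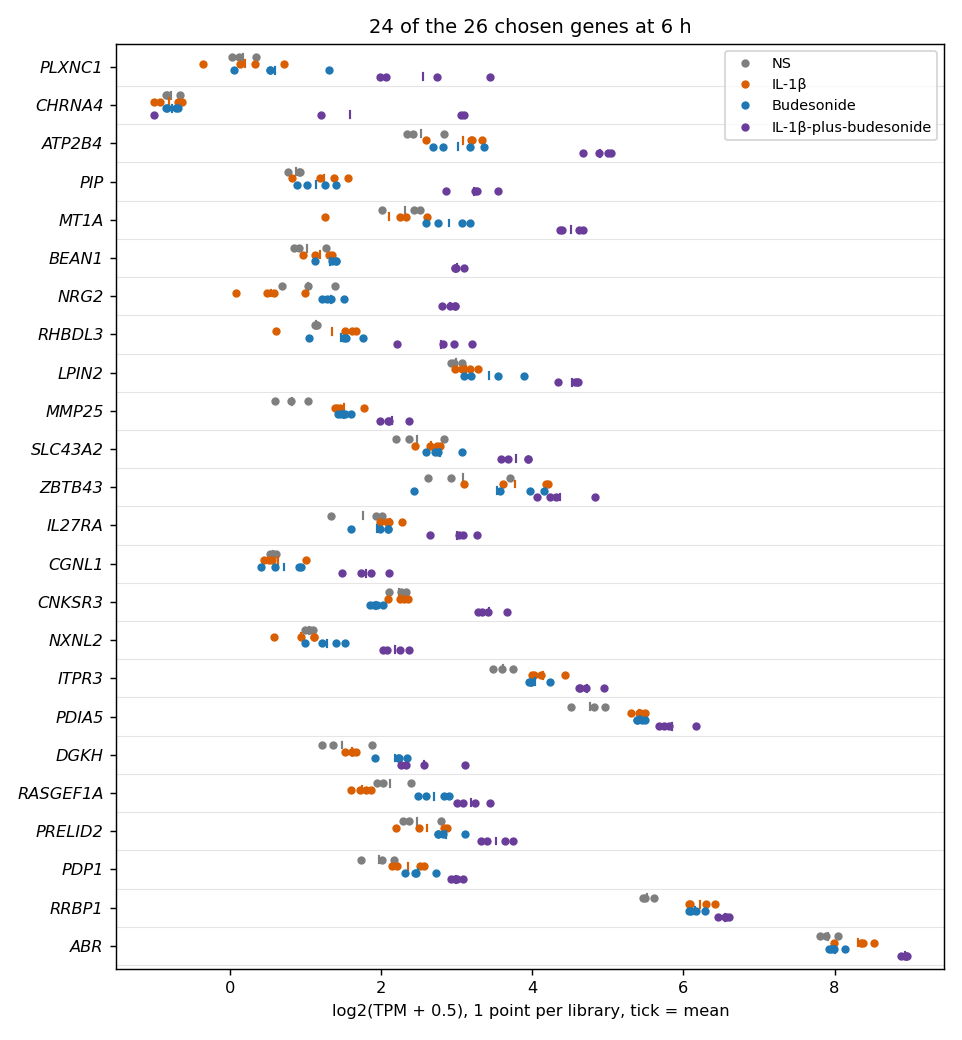
Each point is 1 library at 6 h, placed by log2(TPM + 0.5), with a tick at the group mean and colours for NS, IL-1β, budesonide and IL-1β-plus-budesonide. The 24 genes shown are in order of their difference from NS with IL-1β-plus-budesonide, from 2.39 for PLXNC1 to 1.01 for ABR; 1 cotreated CHRNA4 library was at 0 TPM.

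The thresholds cut through a continuous range. The members nearest to them were ABR, at 1.01 for IL-1β-plus-budesonide against 0.99 for PLXNA1 outside, and RRBP1, at 0.69 for IL-1β against 0.71 for SGMS2. DGKH stood at 0.70 for budesonide, just under the limit, and PHKA1 at 0.71, and CGNL1 stood at 3.03 TPM where CBLN3 had 2.97 TPM. Leaving out each replicate number in turn kept 14 of the 26 genes in all 4 choices. ABR, ATP2B4, CGNL1, DGKH, MMP25, MT1A, PDIA5, PDP1, PRELID2, RASGEF1A, RRBP1 and ZBTB43 were each lost at least once.

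Of the receptors and ligands, PLXNC1 (2.39) and CHRNA4 (2.37) had the largest differences, close to ATP2B4 (2.37) and PIP (2.36). NRG2 (1.88) and IL27RA (1.24) had smaller ones. PLXNC1 encodes plexin C1, a receptor for a semaphorin. PLXNC1 was at 0.594, 0.527 and 0.777 TPM in NS, 0.596, 0.282, 0.761 and 1.14 TPM with IL-1β, 0.947, 0.537, 0.946 and 1.98 TPM with budesonide and 6.19, 3.71, 3.48 and 10.4 TPM with IL-1β-plus-budesonide. Its cotreated libraries stood clear of the other groups and differed among themselves, with replicate 4 the highest in every group. CHRNA4 encodes a subunit of neuronal nicotinic acetylcholine receptors. CHRNA4 was at 0.133, 0.0599 and 0.0646 TPM in NS, 0.124, 0.0294, 0 and 0.146 TPM with IL-1β, 0.0646, 0.113, 0.0603 and 0.124 TPM with budesonide and 0, 7.88, 8.09 and 1.8 TPM with IL-1β-plus-budesonide. The CHRNA4 difference of 2.37 came from 3 of 4 cotreated libraries, and the remaining one was at 0. Outside IL-1β-plus-budesonide at 6 h CHRNA4 reached 1 TPM in too few libraries to pass the filter for testing, whereas the other 25 genes would have passed without that group. NRG2 encodes neuregulin 2, a ligand of ErbB receptor tyrosine kinases. NRG2 was at 2.12, 1.54 and 1.12 TPM in NS, 0.908, 1.5, 1.0 and 0.561 TPM with IL-1β, 2.35, 2.03, 1.94 and 1.84 TPM with budesonide and 7.41, 7.37, 7.05 and 6.49 TPM with IL-1β-plus-budesonide. The NRG2 groups with IL-1β-plus-budesonide and without it did not overlap. IL27RA, the alpha subunit of the interleukin-27 receptor, was at 5.79 to 9.16 TPM in the cotreated libraries and 2.04 to 3.54 TPM in NS.

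Secreted and small metal-binding proteins were also among the larger changes. PIP, prolactin-induced protein, is a secreted glycoprotein of exocrine glands. PIP was at 1.41, 1.39 and 1.21 TPM in NS, 2.46, 2.1, 1.79 and 1.28 TPM with IL-1β, 2.14, 1.35, 1.9 and 1.54 TPM with budesonide and 9.14, 8.98, 6.77 and 11.2 TPM with IL-1β-plus-budesonide. All 4 cotreated PIP libraries exceeded all others, and the single treatments overlapped NS. MT1A encodes metallothionein 1A, which binds zinc and copper. MT1A was at 3.53, 4.94 and 5.24 TPM in NS, 1.89, 5.6, 4.28 and 4.54 TPM with IL-1β, 5.57, 7.92, 8.53 and 6.27 TPM with budesonide and 20.2, 24., 25. and 20.5 TPM with IL-1β-plus-budesonide. All cotreated MT1A libraries were above 20 TPM, every budesonide library was above every NS library, and 1 IL-1β library was the lowest of all. Of its 31-base sequences in the GENCODE 44 transcripts, 18.9% also occur in other genes, most of all MT1X and MT1G, so its reads and those of these paralogs cannot be fully told apart. BEAN1 encodes a membrane protein that binds the ubiquitin ligase NEDD4. BEAN1 was at 1.39, 1.93 and 1.31 TPM in NS, 1.68, 1.45, 1.99 and 2.05 TPM with IL-1β, 2.06, 2.15, 2.15 and 1.69 TPM with budesonide and 7.43, 7.37, 8.04 and 7.46 TPM with IL-1β-plus-budesonide. The 4 cotreated BEAN1 libraries were tightly grouped above the rest.

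CGNL1 encodes paracingulin, a cytoplasmic protein of epithelial junctions. CGNL1 was at 0.953, 0.994 and 1.03 TPM in NS, 0.941, 0.972, 1.52 and 0.873 TPM with IL-1β, 1.02, 1.38, 1.42 and 0.831 TPM with budesonide and 2.83, 3.17, 3.8 and 2.3 TPM with IL-1β-plus-budesonide. The lowest cotreated CGNL1 library was above the highest of the other 3 groups. ATP2B4 is a plasma membrane pump that exports calcium, and ITPR3 is a channel that releases calcium from the endoplasmic reticulum. ATP2B4 was at 4.59, 4.86 and 6.65 TPM in NS, 8.68, 9.6, 5.57 and 8.67 TPM with IL-1β, 9.82, 5.95, 6.57 and 8.59 TPM with budesonide and 31.5, 29.2, 25.1 and 32.4 TPM with IL-1β-plus-budesonide. All 4 cotreated ATP2B4 libraries were far above the rest, and IL-1β and budesonide libraries overlapped NS only in part. ITPR3 was at 10.7 to 13. TPM in NS, 15.4 to 21.1 TPM with IL-1β, 15.1 to 18.3 TPM with budesonide and 24. to 30.4 TPM with both, a graded order in which each single treatment lay above NS.

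RHBDL3 belongs to the rhomboid family of intramembrane proteases. RHBDL3 was at 1.69, 1.71 and 1.73 TPM in NS, 2.58, 2.69, 2.39 and 1.03 TPM with IL-1β, 2.4, 2.35, 2.9 and 1.58 TPM with budesonide and 7.31, 6.59, 8.69 and 4.13 TPM with IL-1β-plus-budesonide. Its lowest cotreated library still exceeded the highest single-treatment library. MMP25, a membrane-anchored matrix metalloproteinase, had 3.94 ± 0.53 TPM (SD, n = 4) with IL-1β-plus-budesonide and 1.28 ± 0.27 TPM (SD, n = 3) in NS, and was at 2.14 to 2.93 TPM with IL-1β and 2.2 to 2.55 TPM with budesonide against 1.02 to 1.56 TPM in NS. MMP25 shares 26.0% of its 31-base sequences with its antisense gene MMP25-AS1. Other members share some too, such as PDIA5 (16.3%, most of all with SEC22A), CNKSR3 (14.2%) and ITPR3 (9.85%, with UQCC2). CNKSR3, a scaffold of the MAP kinase pathway that also acts on the epithelial sodium channel, was at 4.31, 3.79 and 4.55 TPM in NS and 9.21, 12.2, 9.65 and 10.2 TPM with IL-1β-plus-budesonide. RASGEF1A, an exchange factor for Ras-family GTPases, was at 8.73 ± 1.27 TPM (SD, n = 4) with both and 3.91 ± 0.763 TPM (SD, n = 3) in NS. ABR, a regulator of small GTPases, was the most abundant member. ABR was at 263, 237 and 224 TPM in NS, 255, 332, 326 and 367 TPM with IL-1β, 281, 255, 247 and 243 TPM with budesonide and 493, 469, 496 and 488 TPM with IL-1β-plus-budesonide. The cotreated ABR libraries lay in a narrow range that no other 6 h library reached.

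LPIN2 is a phosphatidate phosphatase that makes diacylglycerol. LPIN2 was at 7.14, 7.95 and 7.31 TPM in NS, 7.94, 7.39, 8.57 and 9.23 TPM with IL-1β, 11.2, 8.63, 8.09 and 14.4 TPM with budesonide and 23.1, 23.7, 19.8 and 23.8 TPM with IL-1β-plus-budesonide. The cotreated LPIN2 values did not overlap the others. DGKH, a diacylglycerol kinase, was at 3.28 to 4.57 TPM with budesonide and 4.33 to 8.15 TPM with both, so these groups overlapped. PDP1, which activates pyruvate dehydrogenase by removing phosphate, was at 7.51 ± 0.387 TPM (SD, n = 4) with both and 3.47 ± 0.594 TPM (SD, n = 3) in NS. PRELID2 has the domain of mitochondrial lipid carriers and reached 11.1 ± 1.6 TPM (SD, n = 4). RRBP1, a ribosome-binding protein of the endoplasmic reticulum, was at 43.6, 44.7 and 48.5 TPM in NS, 67.5, 66.7, 78.2 and 84.8 TPM with IL-1β, 68.1, 71.2, 66.9 and 77.7 TPM with budesonide and 87.5, 93.3, 97.2 and 94.2 TPM with both. PDIA5, a protein disulfide isomerase, was at 22.4, 27.7 and 30.8 TPM, 39.1, 42.1, 44.4 and 42.7 TPM, 43.2, 41.5, 44.7 and 41.3 TPM and 50.9, 55.8, 71.5 and 53. TPM in the same order. In RRBP1, PDIA5, ITPR3 and MMP25 every single-treatment library was above every NS library, although all 4 genes met the limit for a gene without a single effect. SLC43A2, an amino acid transporter, reached 13.4 ± 1.75 TPM (SD, n = 4), NXNL2, of the nucleoredoxin-like family, 4.07 ± 0.505 TPM (SD, n = 4), and ZBTB43, a zinc finger protein, 20.5 ± 5.18 TPM (SD, n = 4). In ZBTB43 the cotreated values overlapped both single treatments.

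Promoter sequence was available in the RefSeq table (GRCh38.p14) for 17 of the 26 genes, as 31 windows, and the 250 bases before each start were searched on both strands for 6 short motifs. The glucocorticoid response element core ACANNNTGT was in 3.2% of the members' windows and 4.6% of all 35116 windows. The NF-κB motif, GGG and TTCC with any 3 bases between them, was in 6.5% against 5.7%, the STAT motif TTCNNNGAA in 6.5% against 6.6%, and the C/EBP motif TTGCNNAA in 3.2% against 9.1%. The AP-1 motif TGANTCA was in 12.9% against 6.6%, and the metal response core TGCGCNC in 19.4% against 16.8%. A match describes letters only. 4 promoters are printed with the matches in capitals, 3 of them from genes with a response to the combination beyond 6 h (PIP, PLXNC1 and CNKSR3) and IL27RA because it holds an NF-κB match. They lie at chr7:143131827-143132076 on the plus strand (PIP, bases before the start), chr12:94262369-94262618 on the plus strand (PLXNC1, before a start inside the annotated gene), chr6:154510686-154510935 on the minus strand (CNKSR3) and chr19:14031512-14031761 on the plus strand (IL27RA). Each printed window was picked because it holds a set motif, so a match in it was fixed beforehand. CNKSR3 has 4 windows, of which 1 holds the glucocorticoid response element core. PLXNC1 has 2, of which 1 holds the C/EBP motif. None of the printed matches overlap, and the C/EBP match is on the opposite strand. In order, the capitals mark a STAT and an AP-1 match, a C/EBP and an AP-1 match, a glucocorticoid response element core and a metal response core, and an NF-κB match.
PIP: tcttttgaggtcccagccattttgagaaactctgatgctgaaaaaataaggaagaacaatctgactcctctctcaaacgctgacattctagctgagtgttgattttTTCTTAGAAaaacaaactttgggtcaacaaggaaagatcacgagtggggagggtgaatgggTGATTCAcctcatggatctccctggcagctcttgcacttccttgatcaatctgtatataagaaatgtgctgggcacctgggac
PLXNC1: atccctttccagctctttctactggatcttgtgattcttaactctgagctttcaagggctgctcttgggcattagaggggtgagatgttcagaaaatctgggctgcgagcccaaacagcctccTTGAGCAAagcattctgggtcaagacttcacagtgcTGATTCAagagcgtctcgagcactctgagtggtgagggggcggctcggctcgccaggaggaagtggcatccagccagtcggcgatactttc
CNKSR3: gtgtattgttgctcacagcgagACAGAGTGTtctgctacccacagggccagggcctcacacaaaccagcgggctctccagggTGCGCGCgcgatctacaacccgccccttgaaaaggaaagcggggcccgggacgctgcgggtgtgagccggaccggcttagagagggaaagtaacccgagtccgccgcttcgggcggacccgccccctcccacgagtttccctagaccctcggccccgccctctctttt
IL27RA: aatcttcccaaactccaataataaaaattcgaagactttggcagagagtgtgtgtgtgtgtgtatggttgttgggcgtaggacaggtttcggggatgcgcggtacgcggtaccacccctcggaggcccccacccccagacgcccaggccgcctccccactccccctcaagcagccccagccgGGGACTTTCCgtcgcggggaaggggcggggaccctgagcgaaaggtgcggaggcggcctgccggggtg

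The difference between IL-1β-plus-budesonide and NS was largest at 6 h in 20 of the 26 genes, which the choice at 6 h favours, at 2 h in CNKSR3 and MMP25, at 12 h in MT1A and at 24 h in ITPR3, PIP and SLC43A2. In the tests at the other times a gene was called higher at an adjusted p of at most 0.05 (limma, Benjamini-Hochberg over all 13327 genes tested) and a log2 difference of at least 1. With IL-1β-plus-budesonide against NS, 0 of the 26 genes were called at 1 h (limma, and 3 had an unadjusted p under 0.05), and 5 each at 2, 12 and 24 h. Of all genes tested, 1.07%, 2.86%, 3.39% and 4.28% were called, against 19.2% of the members at each of the last 3 times. Without the 5 libraries that stood apart the count at 12 h was 8, with ATP2B4, ITPR3 and LPIN2 added. Of the 13301 genes then tested, 505 were called. The median difference of the 26 genes at these times was in turn -0.08, 0.26, 0.59 and 0.68, beside -0.04, -0.04, -0.07 and -0.03 over all genes. Over the 4 times 10 different members were called, namely ATP2B4, BEAN1, CNKSR3, ITPR3, MMP25, MT1A, PIP, PLXNC1, RHBDL3 and SLC43A2. The other 16 were not called higher with any treatment against NS at these times. The same counts over the 4 times were not made for all genes tested. All comparisons at a time share their NS and IL-1β-plus-budesonide libraries. Without a minimum change, 11, 15 and 16 members passed at 2, 12 and 24 h, when 7.7%, 12.7% and 17.3% of all genes did. Applied to the other times, the rule that chose the genes kept 10, 24, 15 and 14 genes at 1, 2, 12 and 24 h. Of the 26, these held 0, 4 (ATP2B4, CNKSR3, MT1A and RHBDL3), 1 (PLXNC1) and 1 (MT1A).

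**Figure D2:**
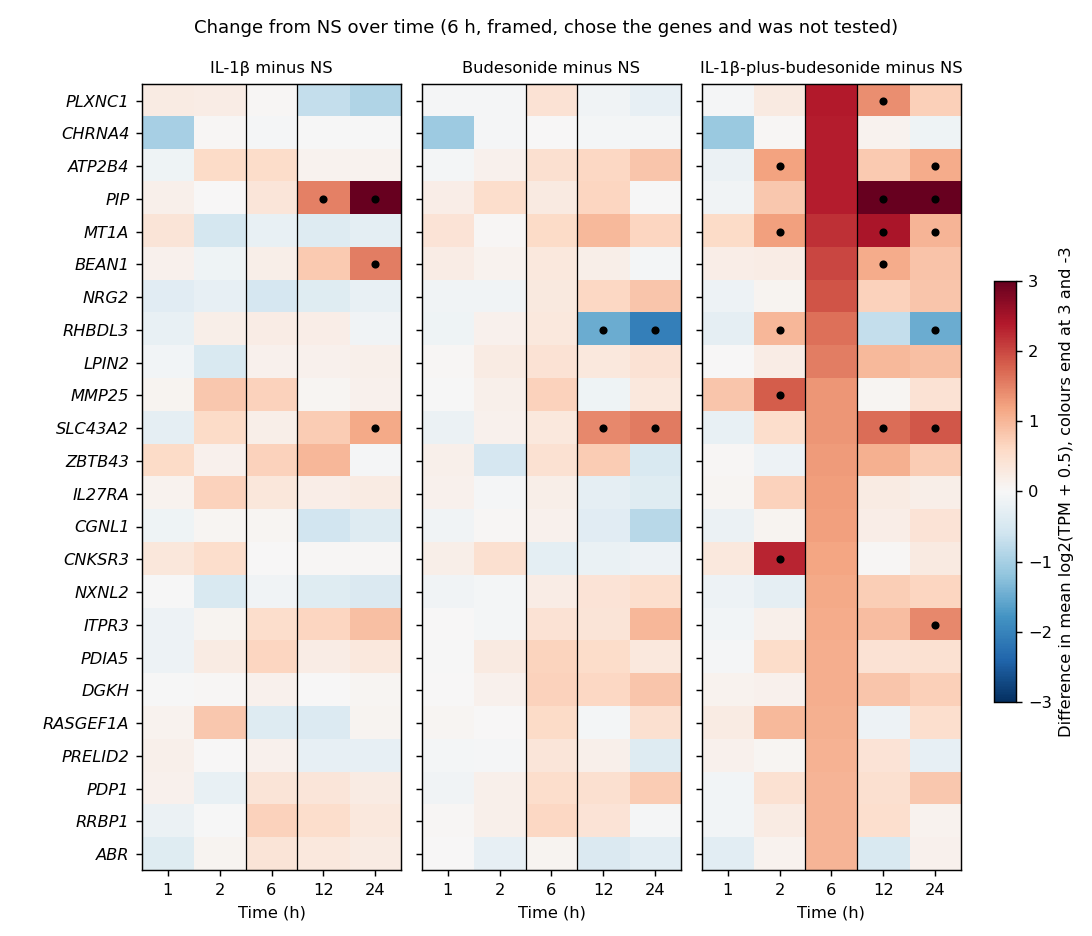
Colour gives the difference from NS at the same time in mean log2(TPM + 0.5) for IL-1β, budesonide and IL-1β-plus-budesonide at 1, 2, 6, 12 and 24 h, with colours ending at 3 and -3 and a dot where limma called a gene at 1, 2, 12 or 24 h. The framed 6 h columns chose the genes; 5 cotreated dots stand at each of 2, 12 and 24 h for genes higher than NS, and RHBDL3 at 24 h is lower.

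The separate treatments called 0 to 3 members at each time. IL-1β against NS called 0 at 1 h (1 at an unadjusted p under 0.05 in limma), 0 at 2 h (7 unadjusted), 1 at 12 h and 3 at 24 h, beside 1.02%, 2.82%, 3.65% and 3.76% of all genes. Budesonide called 0 at 1 h (0 unadjusted in limma), 0 at 2 h (3 unadjusted), 1 at 12 h and 1 at 24 h, beside 0.18%, 0.683%, 3.01% and 4.1%. These calls were PIP, BEAN1 and SLC43A2. For budesonide the members' share, 3.85% at 12 and 24 h, was near that of all genes, and for IL-1β at 12 h it was too. At 24 h IL-1β called 11.5% of the members, above the 3.76% of all genes. Without a minimum change, budesonide alone passed for 9 members at 12 h and 11 at 24 h, when 12.5% and 19.5% of all genes did. IL-1β alone passed for 5 and 7 at these times, when 15.2% and 15.5% did. Budesonide also passed for MT1A at 12 h (1.01, adjusted p = 0.00414) and ITPR3 at 24 h (1.01, adjusted p = 1.59e-10) under median-of-ratios scaling.

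The interaction is the IL-1β-plus-budesonide difference minus the sum of the separate differences on the log2 scale. In TPM it had the same sign as in log2 for all 9 called values, and for most of the members' values not called. It was called above 0 for 0 members at 1 h (limma, 1 unadjusted), 2 at 2 h, 4 at 12 h and 3 at 24 h. A fit over the 12 h libraries alone called only 1 of these at 12 h (CGNL1), as MT1A, PIP and PLXNC1 were no longer called. With a mean of at least 5 TPM the 12 h count was also 1 (MT1A). There only 13 members were tested, and CGNL1, PIP and PLXNC1 were not among them. Of the 9548 genes tested there, 95 were called. With all 13327 genes tested, the share called was 0.015%, 0.203%, 1.28% and 3.11%. At 24 h 1.88% were called below 0, none of them a member. IL-1β-plus-budesonide was called above IL-1β for 0, 3, 5 and 5 members (1 unadjusted at 1 h in limma), beside 0.15%, 0.773%, 3.04% and 3.21% of all genes. Against budesonide, 0, 4, 4 and 2 members were called higher (1 unadjusted at 1 h), beside 0.855%, 2.56%, 1.58% and 1.67%. CNKSR3, MMP25 and MT1A at 2 h and MT1A, PIP and PLXNC1 at 12 h were higher than with either treatment alone. Without replicate 1 the call against budesonide was lost for MT1A at 2 h (0.99) and PLXNC1 at 12 h (1.46, adjusted p = 0.104), and the call of MMP25 against IL-1β was lost with a pseudocount of 1 (0.91) or without replicate 4 (0.95). No member met both conditions at 24 h in limma, where ATP2B4, MT1A, NRG2, NXNL2 and PLXNC1 were above IL-1β, and CGNL1 and PIP were above budesonide. Without the 5 libraries ATP2B4 (0.92) and NRG2 (0.98) were no longer called above IL-1β at 24 h. With a pseudocount of 1 ATP2B4 (0.96), NRG2 (0.90) and NXNL2 (0.85) lost that call, and CGNL1 (0.92) was no longer called above budesonide.

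**Figure D3:**
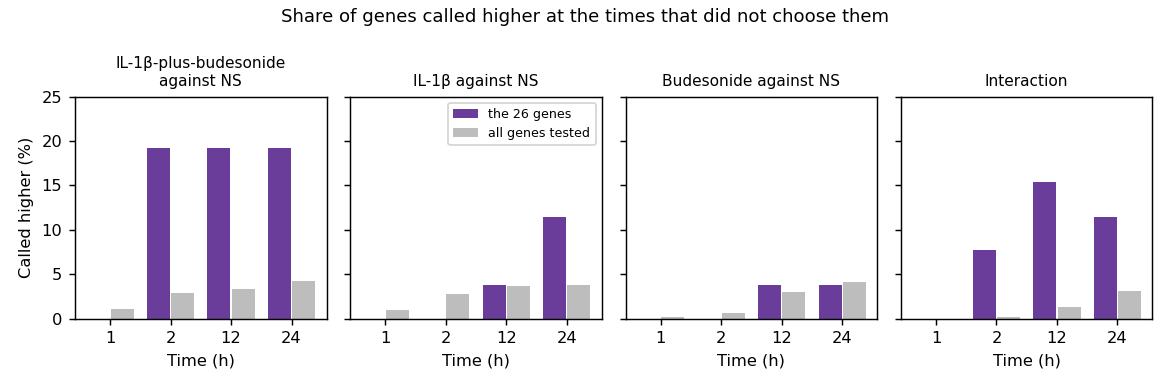
Bars give the percentage of the 26 genes (purple) and of all genes tested (grey) called higher at 1, 2, 12 and 24 h, for each treatment against NS and for the interaction. The members' share with IL-1β-plus-budesonide is 19.2% at 2, 12 and 24 h, and their share with budesonide alone is 3.85% at 12 and 24 h against 3.01% and 4.1% of all genes.

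CNKSR3 and MMP25 had their largest joint differences at 2 h. At 2 h CNKSR3 was at 4.4, 4.69, 3.5 and 4.23 TPM in NS, 6.87, 6.83, 5.98 and 5.39 TPM with IL-1β, 7.0, 6.53, 5.21 and 5.44 TPM with budesonide and 25.2, 24., 21.5 and 18.9 TPM with IL-1β-plus-budesonide. The cotreated libraries lay far above the other 12, among which every single-treatment library was above every NS library. The difference from NS was 2.28 ± 0.11 (SE, adjusted p = 5.04e-26) with IL-1β-plus-budesonide, 0.53 ± 0.11 (SE, adjusted p = 0.000368) with IL-1β and 0.47 ± 0.11 (SE, adjusted p = 0.00482) with budesonide, and the interaction was 1.28 ± 0.16 (SE, adjusted p = 6.52e-08). By 12 h CNKSR3 was at 4.3 ± 0.851 TPM (SD, n = 3) against 4.17 ± 0.635 TPM (SD, n = 4) in NS. From 2 h to 24 h its joint difference fell by 2.02 on the log2 scale (adjusted p = 3.5e-16). MMP25 at 2 h was at 1.17, 1.38, 1.65 and 1.41 TPM in NS, 2.66, 3.19, 2.83 and 2.69 TPM with IL-1β, 1.56, 2.1, 1.6 and 1.22 TPM with budesonide and 5.56, 6.66, 5.94 and 6.64 TPM with both. Its groups with and without the combination did not overlap, and IL-1β alone was above NS. The joint difference was 1.82 ± 0.13 (SE, adjusted p = 5.26e-18) and the interaction 0.86 ± 0.19 (SE, adjusted p = 0.00467), under the minimum for a call. The joint difference of MMP25 at 24 h minus that at 2 h was -1.37 ± 0.19 (SE, adjusted p = 2.63e-08).

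MT1A was called with IL-1β-plus-budesonide at 2, 12 and 24 h. At 2 h MT1A was at 6.89, 5.23, 7.29 and 6.62 TPM in NS, 3.36, 4.96, 5.15 and 3.95 TPM with IL-1β, 4.01, 6.42, 11.8 and 6.26 TPM with budesonide and 15.4, 17.3, 16.6 and 14.2 TPM with IL-1β-plus-budesonide. At 12 h MT1A was at 4.05, 5.83, 2.38 and 4.03 TPM in NS, 2.59, 2.91, 2.27 and 3.86 TPM with IL-1β, 4.68, 14.7, 10.6 and 5.83 TPM with budesonide and 16.2, 38.1 and 21.1 TPM with IL-1β-plus-budesonide. The cotreated libraries exceeded all others at both times, and at 12 h replicate 2 was the highest in both the cotreated and the budesonide group, each a library that stood apart. The interaction was 1.73 ± 0.38 (SE, adjusted p = 0.00338) at 2 h and 1.87 ± 0.39 (SE, adjusted p = 0.000473) at 12 h, and 1.80 at 12 h without the 5 libraries. The 12 h call was lost in the fit over 12 h alone. At 2 h its call was lost without replicate 1 (1.39) or replicate 4 (1.71). At 24 h the joint difference was 1.02 ± 0.27 (SE, adjusted p = 0.00138), a call lost with a pseudocount of 1 (0.93) or without replicate 3 (0.91), and the change from 12 h was -1.43 ± 0.39 (SE, adjusted p = 0.017). At 24 h MT1A was at 6.14 to 9.54 TPM with both and 4.34 to 6.75 TPM with budesonide.

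PIP stayed high with IL-1β-plus-budesonide. At 12 h PIP was at 0.592, 0.864, 2.09 and 1.43 TPM in NS, 4.39, 4.1, 4.94 and 3.56 TPM with IL-1β, 1.73, 2.5, 2.11 and 2.0 TPM with budesonide and 15.1, 24.6 and 15.6 TPM with IL-1β-plus-budesonide. At 24 h PIP was at 0.686, 0.976, 1.09 and 0.914 TPM in NS, 13.3, 16.9, 10.9 and 5.42 TPM with IL-1β, 1.06, 1.05, 0.313 and 1.44 TPM with budesonide and 21.6, 21.8, 15.8 and 17.2 TPM with IL-1β-plus-budesonide. IL-1β and the combination stood above NS and budesonide at both times, without overlap at 12 h, while at 24 h the IL-1β and cotreated ranges met. The differences from NS were 1.52 ± 0.27 (SE, adjusted p = 4.6e-06) with IL-1β and 3.48 ± 0.29 (SE, adjusted p = 7.24e-16) with both at 12 h, and 3.00 ± 0.27 (SE, adjusted p = 8.46e-15) and 3.79 ± 0.27 (SE, adjusted p = 2.63e-19) at 24 h. So at these times PIP no longer met the rule. The interaction was 1.33 ± 0.39 (SE, adjusted p = 0.0182) at 12 h, a call lost without replicate 2 (1.26) or 3 (1.19), without the 5 libraries (1.18), with a pseudocount of 0.1 (1.24) and in the fit over 12 h alone. At 24 h the interaction was 0.80 ± 0.38 (SE, adjusted p = 0.163).

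PLXNC1 was uneven between libraries also at 12 h. At 12 h PLXNC1 was at 0.73, 0.694, 0.647 and 1.54 TPM in NS, 0.42, 0.119, 0.182 and 0.688 TPM with IL-1β, 1.03, 0.341, 0.535 and 1.45 TPM with budesonide and 3.73, 0.889 and 7.21 TPM with IL-1β-plus-budesonide. The lowest cotreated library, replicate 2, is the library that stood apart, and it fell within the NS range, while the other 2 were above all libraries of the other groups. The joint difference was 1.39 ± 0.37 (SE, adjusted p = 0.0026) and was lost as a call without replicate 1 (1.22, adjusted p = 0.0817). The interaction was 2.22 ± 0.51 (SE, adjusted p = 0.00151) at 12 h, or 2.70 without the 5 libraries, and its call was lost in the fit over 12 h alone. It was 1.89 ± 0.49 (SE, adjusted p = 0.00339) at 24 h, where leaving out replicate 1 ended the call (1.81, adjusted p = 0.0732). At 24 h PLXNC1 was at 1.61, 0.627, 0.64 and 1.87 TPM in NS, 0.233, 0.183, 0.206 and 0.955 TPM with IL-1β, 1.37, 0.361, 0.484 and 1.5 TPM with budesonide and 2.33, 1.18, 1.57 and 4.37 TPM with IL-1β-plus-budesonide. The cotreated libraries overlapped NS, although each was above the NS library of the same replicate number. IL-1β minus NS was -0.91 ± 0.35 (SE, adjusted p = 0.0338), and IL-1β-plus-budesonide minus NS was 0.73 ± 0.35 (SE, adjusted p = 0.0922), neither of them called.

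In the junction gene CGNL1 an interaction was called while IL-1β-plus-budesonide was not called against NS. At 12 h CGNL1 was at 1.02, 0.858, 0.962 and 0.989 TPM in NS, 0.536, 0.361, 0.707 and 0.348 TPM with IL-1β, 0.609, 0.678, 0.703 and 0.605 TPM with budesonide and 1.32, 0.877 and 1.4 TPM with IL-1β-plus-budesonide. At 24 h CGNL1 was at 1.21, 1.42, 1.2 and 0.873 TPM in NS, 0.852, 0.548, 0.962 and 0.767 TPM with IL-1β, 0.473, 0.416, 0.338 and 0.52 TPM with budesonide and 1.71, 1.38, 2.11 and 1.73 TPM with IL-1β-plus-budesonide. All libraries with a single treatment at 12 h were below all of NS, and the cotreated libraries overlapped NS at both times. At 12 h the CGNL1 differences from NS were -0.57 ± 0.13 (SE, adjusted p = 0.000258) with IL-1β, -0.34 ± 0.13 (SE, adjusted p = 0.0392) with budesonide and 0.21 ± 0.14 (SE, adjusted p = 0.267) with both, and at 24 h -0.39 ± 0.13 (SE, adjusted p = 0.0154), -0.83 ± 0.13 (SE, adjusted p = 1.98e-07) and 0.41 ± 0.13 (SE, adjusted p = 0.00782). The interaction was 1.13 ± 0.19 (SE, adjusted p = 1.36e-05) at 12 h and 1.63 ± 0.18 (SE, adjusted p = 1.51e-10) at 24 h. At 12 h the call was lost without replicate 4 (0.94) or with a pseudocount of 1 (0.81).

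**Figure D4:**
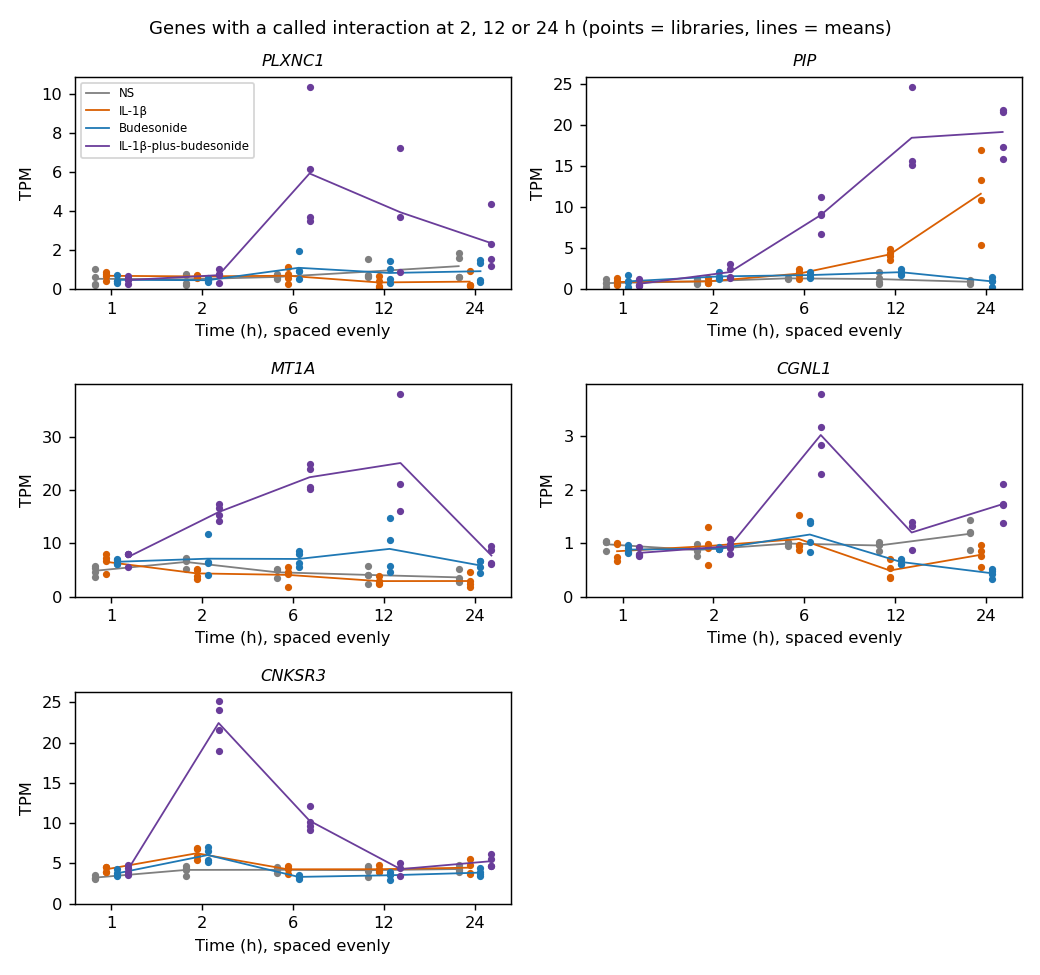
Panels give TPM by library (points) and group mean (lines) at 1, 2, 6, 12 and 24 h, evenly spaced, for 5 genes with a called interaction at 2, 12 or 24 h. CNKSR3 is highest at 2 h with IL-1β-plus-budesonide, MT1A at 12 h and PIP at 24 h, and for CGNL1 the cotreated libraries leave the range of the others at 6 h.

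The calcium genes were called against NS without an interaction, ATP2B4 at 2 and 24 h and ITPR3 at 24 h. At 2 h ATP2B4 was at 4.53, 4.66, 3.76 and 5.1 TPM in NS, 8.78, 8.18, 4.52 and 7.0 TPM with IL-1β, 4.88, 4.49, 4.67 and 5.83 TPM with budesonide and 15.5, 9.28, 9.39 and 10.9 TPM with IL-1β-plus-budesonide. At 24 h ATP2B4 was at 4.3, 4.58, 3.77 and 5.96 TPM in NS, 6.0, 3.93, 4.12 and 6.19 TPM with IL-1β, 9.25, 7.19, 6.83 and 12.1 TPM with budesonide and 10.9, 7.99, 9.22 and 15.6 TPM with IL-1β-plus-budesonide. The 2 h cotreated libraries exceeded all others. At 24 h the cotreated libraries overlapped budesonide, although each was above the budesonide library of the same replicate number. The joint difference was 1.21 ± 0.22 (SE, adjusted p = 1.98e-05) at 2 h and 1.12 ± 0.22 (SE, adjusted p = 2.43e-05) at 24 h, and budesonide alone gave 0.84 ± 0.22 (SE, adjusted p = 0.00136) at 24 h. At 12 h the joint difference was 0.79 ± 0.24 (SE, adjusted p = 0.00788), or 1.00 (adjusted p = 0.00202) without the 5 libraries. ITPR3 was at 31.6 to 38.5 TPM at 24 h with both against 11.5 to 13.6 TPM in NS, a joint difference of 1.45 ± 0.14 (SE, adjusted p = 9.97e-14). Its separate differences were 0.91 ± 0.14 (SE, adjusted p = 2.4e-07) with IL-1β and 0.99 ± 0.14 (SE, adjusted p = 1.96e-08) with budesonide, just under the minimum for a call. IL-1β alone was called for ITPR3 without the 5 libraries (1.05), of which IL-1β replicate 2 at 24 h is one, and without replicate 2 (1.03).

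SLC43A2, BEAN1 and RHBDL3 were called with a single treatment at 12 or 24 h. SLC43A2 at 24 h was at 4.74, 4.17, 4.23 and 3.77 TPM in NS, 10.9, 9.2, 11.3 and 8.31 TPM with IL-1β, 14.3, 13.2, 12.7 and 13.2 TPM with budesonide and 15.9, 16.3, 18. and 16.5 TPM with both. The 4 groups did not overlap, and each treatment lay above NS by 1.13 ± 0.17 (SE, adjusted p = 1.9e-07), 1.55 ± 0.17 (SE, adjusted p = 1.61e-11) and 1.86 ± 0.17 (SE, adjusted p = 2.55e-14). Its interaction was -0.83 ± 0.25 (SE, adjusted p = 0.0126), short of the minimum for a call. At 12 h budesonide gave 1.45 ± 0.17 (SE, adjusted p = 3.44e-10) and the combination 1.68 ± 0.19 (SE, adjusted p = 3.64e-11). At 24 h BEAN1 was at 1.54, 1.49, 1.65 and 0.698 TPM in NS, 5.0, 5.67, 5.32 and 3.2 TPM with IL-1β, 1.37, 1.78, 1.4 and 0.593 TPM with budesonide and 2.89, 3.57, 3.23 and 1.66 TPM with IL-1β-plus-budesonide. IL-1β alone was the highest group on average, and the cotreated libraries were just above NS. The differences from NS were 1.53 ± 0.20 (SE, adjusted p = 3.72e-09) with IL-1β and 0.85 ± 0.20 (SE, adjusted p = 0.000389) with both. At 12 h the combination was called, with 1.11 ± 0.22 (SE, adjusted p = 3.65e-05), but not with a pseudocount of 1 (0.93) or without replicate 1 (0.95).

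RHBDL3 was called higher at 2 h and lower at 24 h. Its joint difference at 2 h was 1.01 ± 0.22 (SE, adjusted p = 0.000339), a call that was lost without replicate 1 (0.96), 2 (0.99) or 4 (0.97) and with a pseudocount of 1 (0.89). At 24 h RHBDL3 was at 3.5, 3.59, 3.68 and 2.0 TPM in NS, 4.23, 2.93, 2.41 and 2.26 TPM with IL-1β, 0.519, 0.312, 0.548 and 0.166 TPM with budesonide and 0.825, 0.973, 0.905 and 0.525 TPM with IL-1β-plus-budesonide. All cotreated and budesonide libraries were below all of NS and IL-1β. Budesonide lowered RHBDL3 by 1.49 at 12 h (adjusted p = 8.1e-08) and 2.05 at 24 h (adjusted p = 2.83e-12), as 1 of 26 members beside 2.6% and 5.7% of all genes called lower. The combination was lower than NS by 1.48 (adjusted p = 5.25e-08) and than IL-1β by 1.38 (adjusted p = 4.28e-07) at 24 h, beside 5.73% and 3.52% of all genes. The joint difference fell by 2.49 on the log2 scale from 2 h to 24 h.

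**Figure D5:**
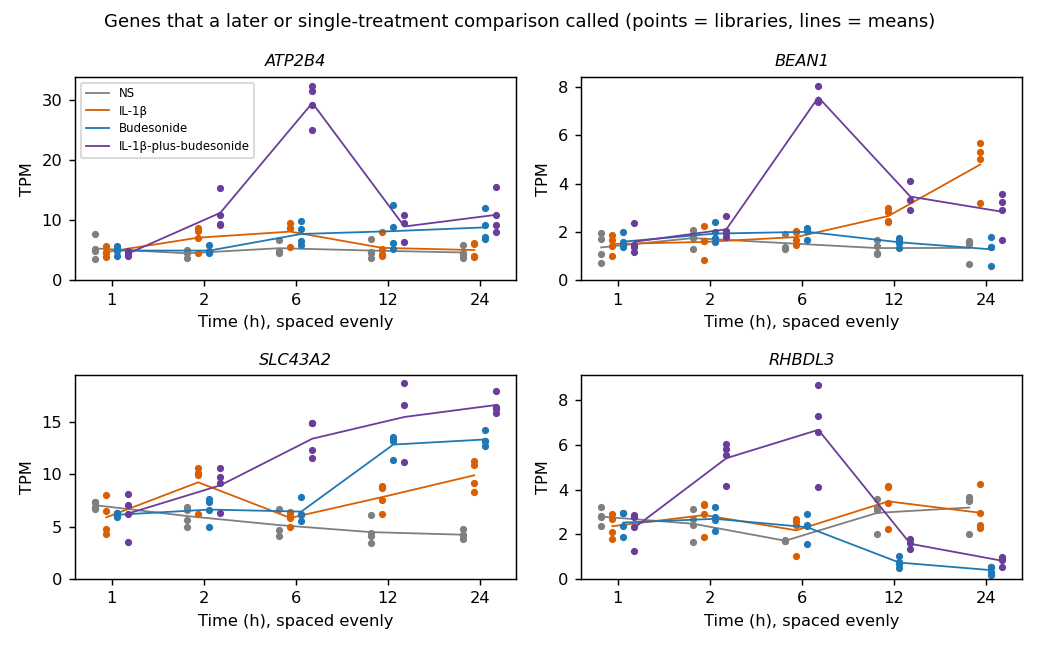
Panels give TPM by library (points) and group mean (lines) for ATP2B4, BEAN1, SLC43A2 and RHBDL3 at 1, 2, 6, 12 and 24 h, evenly spaced. Budesonide and IL-1β-plus-budesonide libraries of RHBDL3 are below NS at 24 h (0.166 to 0.973 TPM against 2.00 to 3.68 TPM), and all 3 treatments raise SLC43A2 by 24 h.

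The difference between times was tested directly in the same fit, a contrast chosen after the values were seen. Between 24 h and 12 h the joint difference was lower at 24 h in 1 member (MT1A), beside 1.46% of all genes, and higher in 0 (limma), beside 0.135%. Between 24 h and 2 h it was higher at 24 h in ITPR3, PIP and SLC43A2, beside 3.11% of all genes, and lower in CNKSR3, MMP25 and RHBDL3, beside 6.1%.

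Several members had a joint difference with an adjusted p under 0.05 that was below the minimum for a call. At 24 h it was for LPIN2 0.89 ± 0.15 (SE, adjusted p = 1.35e-06), NRG2 0.82 ± 0.16 (SE, adjusted p = 2.64e-05), PDP1 0.81 ± 0.21 (SE, adjusted p = 0.00136) and DGKH 0.72 ± 0.21 (SE, adjusted p = 0.00407). In NRG2, PDP1 and DGKH budesonide alone gave 0.83 ± 0.16 (SE, adjusted p = 2.24e-05), 0.76 ± 0.21 (SE, adjusted p = 0.00248) and 0.83 ± 0.21 (SE, adjusted p = 0.000838). At 2 h RASGEF1A and IL27RA had joint differences of 0.98 ± 0.17 (SE, adjusted p = 8.85e-06) and 0.70 ± 0.17 (SE, adjusted p = 0.00214), and IL-1β alone gave 0.80 ± 0.17 (SE, adjusted p = 0.000287) and 0.69 ± 0.17 (SE, adjusted p = 0.00226). At 12 h the joint difference of LPIN2 was 0.97 ± 0.16 (SE, adjusted p = 2.23e-06), or 1.26 (adjusted p = 6.64e-10) without the 5 libraries. For NXNL2 at 24 h IL-1β alone gave -0.43 ± 0.12 (SE, adjusted p = 0.00296) and budesonide alone 0.50 ± 0.12 (SE, adjusted p = 0.000426). The 3 most abundant members were not called against NS at the other times. ABR was at 319, 89.5 and 309 TPM with both against 257 to 343 TPM in NS at 12 h (-0.45 ± 0.27, SE, adjusted p = 0.212). The value of 89.5 TPM is from replicate 2, a library that stood apart. RRBP1 gave 0.49 ± 0.07 (SE, adjusted p = 6.4e-08) at 12 h and 0.11 ± 0.07 (SE, adjusted p = 0.185) at 24 h, and PDIA5 0.43 ± 0.13 (SE, adjusted p = 0.00984) and 0.46 ± 0.12 (SE, adjusted p = 0.00219). ZBTB43 gave 1.08 ± 0.49 (SE, adjusted p = 0.0929) at 12 h, with an adjusted p of 0.0376 when same-numbered libraries of a time were taken as pairs, and the paired fit also called ZBTB43 above budesonide at 24 h (1.23, adjusted p = 0.0269). For IL27RA and PRELID2 the joint difference at 24 h was 0.18 ± 0.17 (SE, adjusted p = 0.47) and -0.24 ± 0.15 (SE, adjusted p = 0.244). CHRNA4 was at 0 TPM in all 4 cotreated libraries at 24 h, and in NS at 1 h replicates 2 and 4 were at 1.93 and 1.78 TPM beside 0.0623 and 0.0234 TPM.

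None of the 26 genes was in the lists of known response genes examined beside them. The rule had left out genes that either treatment alone raised past its limit, which favours this absence. The lists were also short beside all genes listed, and the overlap to be expected by chance was not computed. No conclusion is therefore drawn from the absence. At 24 h IL-1β-plus-budesonide was called above NS for 22 of 24 GR targets tested (median log2 difference 2.70) and 18 of 26 NF-κB targets (2.26), beside 4.28% of all genes and a median of -0.03 over them. It was called for 14 of 23 acute phase genes (1.73), 9 of 22 genes of interleukin-6 family signaling (0.91), 5 of 18 innate immune receptor genes (0.29) and 1 of 18 genes of the GR and NF-κB machinery (0.03), FKBP5. None of these lists held a gene called lower in that comparison in limma, although 2 interleukin-6 family genes, 2 innate receptor genes, 1 NF-κB target and 2 machinery genes had an unadjusted p under 0.05 below NS. Among cell type markers, 1 of 6 epithelial, 1 of 4 alveolar type II, 2 of 3 immune, 1 of 4 fibroblast and 0 of 1 endothelial genes tested were called higher (0 endothelial unadjusted), and 2 epithelial and 2 fibroblast genes lower. The medians of these lists were 0.58, 0.09, 1.02, -1.09 and -0.07. The interaction at 24 h was called below 0 for 14 of 26 NF-κB targets, 3 of 24 GR targets and 4 of 22 interleukin-6 family genes, with 0 called above 0 in these lists (1, 5 and 0 unadjusted in limma). It was called above 0 for 6 and below 0 for 5 of 23 acute phase genes, and above 0 for 2 and below 0 for 1 of 18 innate receptor genes. Of all genes, 3.11% were called above 0 and 1.88% below 0, and of the 26 members 3 were called above 0 and none below. The part of these lists in the members' differences was not tested.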

How the data were processed

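Poly(A) RNA of A549 cells was sequenced in 78 labelled libraries of 20 groups. Per the labels, the submitters' processing notes name kallisto, sleuth and the GRCh38 (hg38) build, with versions not given in the sources used here. The deposited table holds gene-level TPM, a signal that the authors scaled between libraries, with library sums of 812680 to 1009499, so read depth is unknown and no counting interval was possible. 1 library outside the labels was not analysed here. The authors' table of their own comparisons (log2 fold changes, FDR values, directions and peak times) was not used.

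The 26 genes and the gene lists were chosen with earlier results of these data known. Differences were fitted on log2(TPM + 0.5) with limma 3.58.1 (R 4.3.3, trend), with 1 mean per group in all 78 libraries. A gene needed 1 TPM or more in 3 libraries, which left 13327 genes, all 26 included, with Benjamini-Hochberg adjustment, and a call needed an adjusted p of 0.05 or less and an absolute log2 change of 1 or more. The fit was tested on simulated data. Library values are given for the 10 members with the largest 6 h difference, for those called in the interaction, and for the 4 most abundant, and other members were described after their values were seen. Lists covered acute phase proteins, interleukin-6 family signaling, innate receptors, GR targets, NF-κB targets, GR and NF-κB machinery and cell type markers. Deviations from group means correlated above 0.1 in 111 of 114 pairs of same-numbered libraries of a time, in all pairs at 2, 12 and 24 h, so a fit with the replicate number as a block was made too. Other alternatives were pseudocount, scaling, filter, minimum change, single-time fits, moderation, and libraries left out. Sequences came from RefSeq (GRCh38.p14) and shared 31-base sequences from GENCODE 44 transcripts. The values of 2 of the 26 genes are not reported here, although the counts include them.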

Additional observations from a re-analysis of the deposited data

Results flagged for a closer look

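For the 26 genes at 6 h and those with a called interaction at its time, 110 groups of 4 libraries were examined, and in 7 of them 1 library stood apart from the other 3 by more than the 95% limit of Dixon's test, which chance gives in about 1 in 20. With IL-1β-plus-budesonide at 6 h, BEAN1 was at 8.04 TPM in replicate 3, above 7.37 to 7.47 TPM in the others, and LPIN2 at 19.8 TPM in replicate 3, below 23.1 to 23.8 TPM. With IL-1β at 6 h, RHBDL3 was at 1.03 TPM in replicate 4 against 2.39 to 2.69 TPM, and MMP25 at 2.93 TPM in replicate 3 against 2.14 to 2.25 TPM. With budesonide at 6 h, ITPR3 was at 18.3 TPM in replicate 4 against 15.1 to 15.4 TPM. PLXNC1 was at 1.54 TPM in replicate 4 of NS at 12 h against 0.647 to 0.730 TPM, and at 0.955 TPM in replicate 4 of IL-1β at 24 h against 0.183 to 0.233 TPM.

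The response to IL-1β differed with and without budesonide, by a called interaction in limma, in 8 cases given here. At 2 h these were CNKSR3 (1.28) and MT1A (1.73), at 12 h CGNL1 (1.13), MT1A (1.87), PIP (1.33) and PLXNC1 (2.22), and at 24 h CGNL1 (1.63) and PLXNC1 (1.89), all on the log2 scale. The difference between IL-1β-plus-budesonide and NS itself differed between times in 7 members. At 24 h minus 12 h it was -1.43 for MT1A. At 24 h minus 2 h it was -2.02 for CNKSR3, -1.37 for MMP25, -2.49 for RHBDL3, 1.30 for ITPR3, 2.98 for PIP and 1.34 for SLC43A2.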

How the results depend on the processing

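The choice of 26 genes at 6 h became 16 with single treatments below 0.5, 86 with single treatments below 1, 47 with a minimum of 1 TPM, and 25 to 34 with a replicate left out. Of 384 recomputed counts of called members, 331 stayed within 1.5 times and 53 did not, and the cause was not tested. Without a minimum change, IL-1β-plus-budesonide against NS passed for 1, 11, 15 and 16 members at 1, 2, 12 and 24 h. Of all genes, 2.04%, 7.7%, 12.7% and 17.3% did. Against IL-1β it passed for 1, 7, 12 and 14 members, beside 0.518%, 2.69%, 16.5% and 14.7% of all genes. Against budesonide it passed for 1, 7, 9 and 8, beside 1.73%, 7.08%, 5.06% and 5.67%. IL-1β passed for 5, 5 and 7 at 2, 12 and 24 h, beside 8.97%, 15.2% and 15.5% of all genes. Budesonide passed for 1, 9 and 11 at these times, beside 2.02%, 12.5% and 19.5%. With a mean of at least 5 TPM, where only 13 members were tested, IL-1β-plus-budesonide against NS gave 3 at 2 h and 2 at 12 h, against IL-1β 1 at 12 h and 2 at 24 h, against budesonide 1 at 12 h and 0 at 24 h, IL-1β 0 at 12 h and 1 at 24 h, and the interaction 1 at 12 h and 1 at 24 h. Of the 9548 genes then tested, 222 and 281 were called higher against NS at these times. Against IL-1β 237 and 248 were, and against budesonide 125 and 137. IL-1β called 290 and 286, and the interaction 95 and 293, in the same order of times. With a pseudocount of 0.1, IL-1β-plus-budesonide gave 1 at 1 h against NS and 1 against budesonide, and budesonide 2 at 12 h and 2 at 24 h. Of the 13327 genes tested, these comparisons called 167, 133, 467 and 667 in turn. Budesonide also gave 2 at 12 h and 2 at 24 h with median-of-ratios scaling and with quantile normalization. It called 428 and 567 of 13319 genes with the former, and 427 and 600 of 13329 with the latter. With a pseudocount of 1, IL-1β-plus-budesonide gave 3 at 12 h and 2 at 24 h against IL-1β, and 1 at 24 h against budesonide. Of the 13327 genes tested, 318, 336 and 177 were called in turn. A fit over 1 time only gave 1 interaction at 12 h, and the same count over all genes was not made for that fit. Without the 5 libraries that stood apart, IL-1β-plus-budesonide gave 8 at 12 h against NS and 3 at 24 h against IL-1β. Of the 13301 genes then tested, 505 and 376 were called higher in these comparisons.

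With a replicate left out, the count ranged from 3 to 7 for IL-1β-plus-budesonide against NS at 12 h (3 without replicate 1), from 0 to 1 against budesonide at 1 h (1 without replicate 4) and from 2 to 5 at 2 h (2 without replicate 1). In the fits named in brackets, 453 of 13253, 124 of 13202 and 311 of 13253 genes were called in turn. The members' count ranged from 1 to 2 for the interaction at 2 h (1 without replicate 1 or 4), for IL-1β at 12 h (2 without replicate 3), for budesonide at 12 h (2 without replicate 1 or 4) and at 24 h (2 without replicate 1, 2 or 3). In these fits the interaction called 20 of 13253 and 27 of 13202 genes, and IL-1β 472 of 13243. Budesonide called 391 of 13253 and 403 of 13202 genes at 12 h. At 24 h it called 532 of 13253, 568 of 13241 and 539 of 13243. Of 130 recomputed values of the 9 called interactions, 118 stayed called, 12 did not and 0 changed sign. With the replicate block over all times and within each time, the pairing added the ZBTB43 calls given in the report and changed no other call. For IL-1β-plus-budesonide against NS at 12 h the replicate block over all times gave 5 members and the block within each time 6. Of the 13327 genes tested, 455 and 457 were called. Genes of low TPM, such as CGNL1, PLXNC1 and CHRNA4, limit the precision of these calls, and the depth is unknown.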
